A study of Mus musculus with 9 samples.

Results

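The granulocyte genes described here are 34 mouse genes taken by their symbols from a table of read counts for 46958 genes. They were chosen as genes that neutrophils, eosinophils and basophils are known to express. This choice, like that of all lists here, was made with earlier results of these data known. By role, 7 belong to the primary granules and the promyelocyte stage of neutrophils, 10 encode secondary and tertiary granule proteins and 6 encode cytosolic or secreted proteins of mature neutrophils. A further 7 encode neutrophil surface receptors, and 4 are genes of basophils and eosinophils. The RNA came from spleen cells held on magnetic beads against CD138, a surface proteoglycan of plasma cells, and the labels give the purity as above 80%. All mice were 3 months old, had not been immunized and had the mixed background C57/BL6x129/SVxBALB/c. Of 9 libraries, 3 were labelled WT, 3 DH-LMP2A and 3 kFRA (LCDD), with 1 spleen per library, so that p-values measure the spread between mice. LMP2A is a membrane protein of Epstein-Barr virus, and LCDD is light chain deposition disease, in which an immunoglobulin light chain is deposited in tissues. What the DH-LMP2A and kFRA alleles are, and whether kFRA mice also carried DH-LMP2A, is not stated in the labels. The series asked whether such a light chain is toxic to the plasma cells that make it. In a bulk fraction, fewer cells of a type and less RNA per cell cannot be told apart.

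Neutrophils are short-lived phagocytes that make their granules in order as they mature. Promyelocytes fill the primary granules with myeloperoxidase and serine proteases, later precursors make lactoferrin, cathelicidin and gelatinase, and the mature cell is rich in the calcium-binding proteins S100A8 and S100A9 and carries the receptors CXCR2 and G-CSF receptor. Transcription factors of the C/EBP family and PU.1 are known to drive many of these genes. In the spleen, neutrophils are found in the red pulp, where plasma cells and macrophages also lie.

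Upstream sequences were looked at because most of the later neutrophil genes moved together across the libraries. RefSeq promoters of build GRCm38.p6 were matched for 29 of the 34 genes, and the 250 bases before each start were searched on both strands. For 26 of the 29, the bases after the start were found near the start of a known transcript of the gene. The C/EBP motif TTGCNNAA was in 8 of 20 promoters of later neutrophil genes (40%), and in 9.55% of 27025 promoters of all genes. The PU.1 motif GAGGAAG was also in 8 of these 20 (40%), and in 10.4% of all promoters. The GATA motif AGATAA was in 4 of the 20 (20%), and in 10.3% of all promoters. Of 11 C/EBP matches in the promoters of all members, 0 overlapped a PU.1 or GATA match. A match is a description of these letters only. Matches that lie inside the gene as it was counted, such as those of Lcn2 and Anxa1, are not shown. The 6 stretches that follow belong to later neutrophil genes described below. Of these, Ly6g did not vary with the rest, while S100a8, Cxcr2 and Padi4, which did, had no match in this window. They are shown 5′ to 3′ on the strand of the gene, with the C/EBP match, on either strand, in capitals. They come from chr3:90695924-90695971 (S100a9, minus strand), chr9:7558384-7558428 (Mmp8, plus strand), chr9:110419644-110419703 (Ngp, plus strand), chr9:111019191-111019250 (Ltf, plus strand), chr16:48872358-48872395 (Retnlg, plus strand) and chr15:75155011-75155062 (Ly6g, plus strand).
S100a9: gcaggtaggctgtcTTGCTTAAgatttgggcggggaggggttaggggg
Mmp8: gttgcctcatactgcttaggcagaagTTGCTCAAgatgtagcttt
Ngp: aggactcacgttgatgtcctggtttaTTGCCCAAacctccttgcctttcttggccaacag
Ltf: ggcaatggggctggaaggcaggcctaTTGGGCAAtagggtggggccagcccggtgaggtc
Retnlg: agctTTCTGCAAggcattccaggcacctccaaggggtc
Ly6g: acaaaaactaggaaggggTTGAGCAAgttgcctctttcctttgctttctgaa

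Total counts ranged from 15449026 to 21558128 per library, and granulocyte genes took a small share of them. Without Prg2, which differed from the rest, the members held 0.0586% to 0.169% of the counts in WT, 0.0063% to 0.0633% in DH-LMP2A and 0.00472% to 0.00867% in kFRA. Levels below are in CPM, the usual unit of counts relative to library size, after TMM scaling, a correction for differences in library composition. A floor of detection of 3 counts equals 0.127 to 0.205 CPM, depending on the library. The fractions carried the markers of their label. All 10 plasma cell markers were detected. Their sum was 19357, 24662 and 23695 CPM in WT, 36686, 34755 and 47813 CPM in DH-LMP2A, and 31526, 21050 and 33207 CPM in kFRA. All DH-LMP2A libraries were thus above all WT libraries, and kFRA replicate 2 lay within the WT range. The part of these differences in the levels below was not tested. Of the 34 members, 26 passed the filter on low counts and were tested. The 8 others were Elane, Prtn3, Ctsg, Fcnb and Cebpe of the early neutrophil stage, and Mcpt8, Prss34 and Epx of basophils and eosinophils. In 2 libraries the members stood apart. DH-LMP2A replicate 3 was below replicates 1 and 2 in 23 of the 25 tested members other than Prg2 (92%), against 37.7% of all genes tested, and the mean of replicates 1 and 2 was a median 11-fold above it. WT replicate 2 was the highest WT library in 19 of the 26 tested members (73.1%), against 29.4% of all genes tested.

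Across the genotypes, the summed level of the neutrophil genes was highest in WT and lowest in kFRA, although single genes differed from this order. Summed over the 30 neutrophil members, the level was 702, 1853 and 753 CPM in WT replicates 1 to 3, 462, 542 and 59.5 CPM in DH-LMP2A, and 49.7, 70.9 and 64.4 CPM in kFRA. The means were 1103 ± 650.4 CPM in WT, 354 ± 259 CPM in DH-LMP2A and 61.7 ± 10.8 CPM in kFRA (SD, n = 3 each). WT stood 17.9-fold above kFRA, and no WT library came near a kFRA library. The DH-LMP2A group was split: replicates 1 and 2 lay below WT, and replicate 3 lay within the kFRA range. Macrophage markers, which mark another cell of the red pulp, varied much less. Their sum over 13 genes was 7585, 5964 and 4528 CPM in WT, 3727, 4556 and 1451 CPM in DH-LMP2A, and 2875, 4765 and 2932 CPM in kFRA. Ly6c2, on the same marker list, is left out of that sum because it ran the other way, at 2107 to 4026 CPM in DH-LMP2A and kFRA and 204 to 454 CPM in WT. Per 100 CPM of these macrophage markers, the neutrophil members summed to 9.26, 31.1 and 16.6 CPM in WT, 12.4, 11.9 and 4.1 CPM in DH-LMP2A, and 1.73, 1.49 and 2.2 CPM in kFRA. The kFRA libraries were thus below every other library on this ratio as well. DH-LMP2A replicate 3, with the lowest macrophage sum of all, also had the highest sum of 11 erythroid markers, 13685 CPM against 2591 and 2693 CPM in replicates 1 and 2. Between WT and kFRA, erythroid markers ran opposite to the neutrophil sum. They were at 56.9, 204 and 359 CPM in WT and 1179, 2332 and 2829 CPM in kFRA. The DH-LMP2A mean was not between these but the highest, at 6323 CPM, against 206 CPM in WT and 2113 CPM in kFRA. In kFRA against WT the median log2 fold change of these markers was 2.75, and 5 of 11 passed, all higher. Of all genes tested, 6.68% passed as higher there. In DH-LMP2A against WT the median was 2.95, and 5 of 11 passed, all higher, against 5.07% of all genes. DH-LMP2A replicate 3 was also the 1 library of its group with little Xist, the RNA of the inactive X chromosome (4.49 CPM against 924 and 882 CPM). WT replicate 2 and kFRA replicates 1 and 3 had little Xist too, at 0.459, 1.3 and 3.14 CPM. Ddx3y, a gene of the Y chromosome, was at 55.8, 43.5, 50.2 and 40.8 CPM in these libraries, in this order, and at 0 in all others. Each genotype thus held mice of both sexes. The high and the low libraries of the neutrophil genes both included libraries with little Xist. The part of these differences in the results was not tested.

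**Figure D1:**
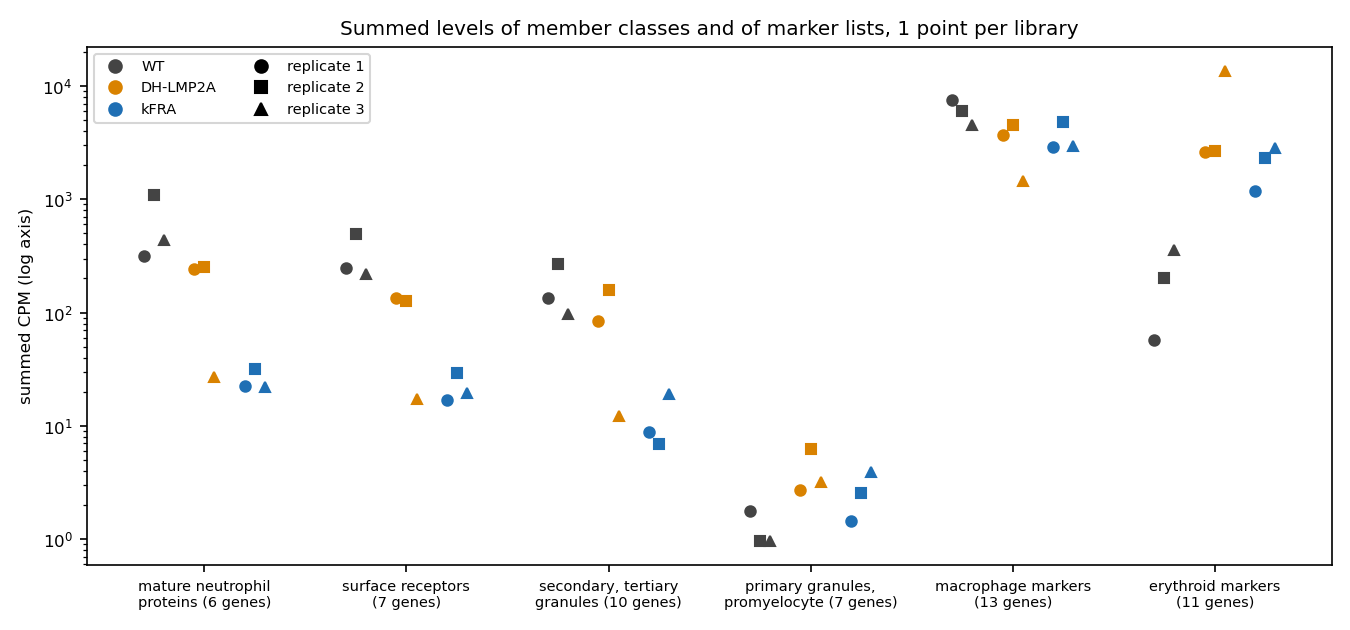
Summed level in CPM (log axis) of 4 classes of neutrophil members and of the macrophage and erythroid markers, with 1 point per library, coloured by genotype and shaped by replicate. Mature neutrophil proteins, receptors and later granule proteins have their highest mean in WT and their lowest in kFRA. DH-LMP2A replicate 3 lies among the kFRA libraries in these classes. For the later granule proteins, DH-LMP2A replicate 2 (157 CPM) lies above WT replicates 1 and 3 (136 and 97.1 CPM). The primary granule and promyelocyte genes do not follow this order of means.

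The counts of calls differed between the 3 comparisons, which share libraries in pairs and are given side by side for that reason. A call is a Benjamini-Hochberg adjusted p under 0.05 by edgeR's quasi-likelihood test over all 14199 genes tested. In kFRA against WT, 18 of the 26 tested members passed, 17 lower and 1 higher in kFRA, where 17.8% of all genes tested passed (11.1% lower and 6.68% higher). In kFRA against DH-LMP2A, 4 members (15.4%) passed, all lower in kFRA, where 5.02% of all genes passed (3.3% lower). In DH-LMP2A against WT, 4 members (15.4%) passed, 2 higher and 2 lower in DH-LMP2A. Of all genes, 12.4% passed there (5.07% higher and 7.3% lower), so that this count is near the background. The median log2 fold change of the tested members was −3.77, −2.99 and −1.07 in this order, and that of all genes tested was −0.04, −0.005 and −0.008. Libraries of kFRA lay without overlap below those of WT in 22 members, against 20.2% of all genes, and above them in 1, against 14.2%. Against DH-LMP2A, kFRA lay without overlap below in 6 members, against 13.9% of all genes. DH-LMP2A lay without overlap below WT in 11 members, against 19.1% of all genes, and above in 3, against 17.5%.

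**Figure D2:**
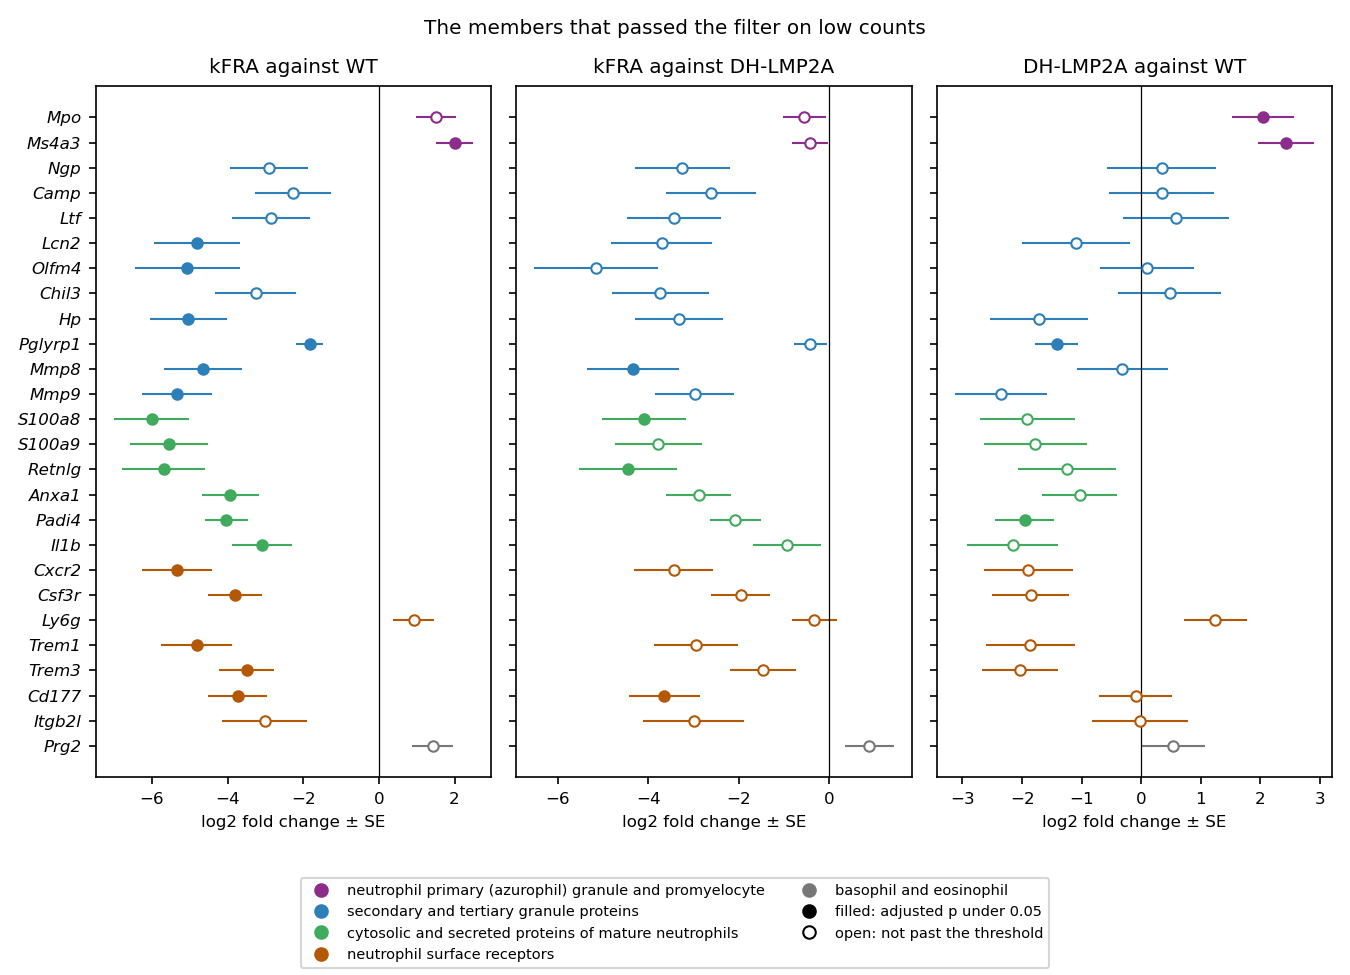
Log2 fold change ± standard error (SE) of the 26 tested members in the 3 comparisons, from edgeR's fit, coloured by role; filled points passed the adjusted threshold of 0.05. In kFRA against WT nearly all later neutrophil genes lie below 0 and most are filled, in kFRA against DH-LMP2A they lie below 0 with 4 filled, and in DH-LMP2A against WT the classes differ in sign.

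The cytosolic and secreted proteins of mature neutrophils showed the lowest levels in kFRA relative to WT, and all 6 of them fell. S100a9 (chr3:90692632-90695721, build GRCm38, 3 exons) and S100a8 (chr3:90668978-90670035, 3 exons) encode the 2 chains of calprotectin and lie 22.6 kb apart. S100a9 was at 136, 538 and 209 CPM in WT, 116, 131 and 10.5 CPM in DH-LMP2A, and 3.42, 3.52 and 11.9 CPM in kFRA. WT replicate 2 stood highest, and DH-LMP2A replicate 3 lay among the kFRA libraries. The fold change of S100a9 in kFRA against WT was −5.55 on the log2 scale, 46.9-fold lower (adjusted p = 0.00676 by edgeR, SE 1.03). S100a8 was at 74.5, 262 and 93.9 CPM in WT, 60.3, 49.1 and 4.99 CPM in DH-LMP2A, and 1.98, 1.09 and 3.7 CPM in kFRA. Here the 3 genotypes overlapped in no library. S100a8 fell by 6.01 on the log2 scale in kFRA against WT, a 64.4-fold difference (adjusted p = 0.00398 by edgeR, SE 0.995), and by 4.10 against DH-LMP2A (adjusted p = 0.0378 by edgeR, SE 0.931). Retnlg, which encodes a resistin-like secreted protein, was at 16, 37.5 and 18.1 CPM in WT, 10.1, 19.2 and 0.961 CPM in DH-LMP2A, and 0, 0.618 and 0.69 CPM in kFRA. Its log2 fold change was −5.69 against WT (adjusted p = 0.00817 by edgeR, SE 1.1) and −4.45 against DH-LMP2A (adjusted p = 0.0486 by edgeR, SE 1.08).

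Padi4, the enzyme that citrullinates histones when neutrophil extracellular traps form, was at 7.29, 11 and 7.2 CPM in WT, 2.12, 3.76 and 0.686 CPM in DH-LMP2A, and 0.41, 0.666 and 0.439 CPM in kFRA. Each genotype kept a range of its own, in the order WT, DH-LMP2A, kFRA, although the lowest DH-LMP2A and the highest kFRA library were close. Padi4 had a log2 fold change of −4.03 in kFRA against WT (adjusted p = 0.00177 by edgeR, SE 0.575), the smallest adjusted p of the members, and −1.96 in DH-LMP2A against WT (adjusted p = 0.0305 by edgeR, SE 0.492). Anxa1, the phospholipid-binding protein annexin A1, was at 9.02, 34.8 and 8.85 CPM in WT and 0.889, 0.952 and 1.63 CPM in kFRA. Its log2 fold change there was −3.92 (adjusted p = 0.00734 by edgeR, SE 0.742). Il1b, which encodes the cytokine interleukin 1 beta and is also made by monocytes and macrophages, differed from the others in kFRA. It was at 73, 209 and 98.9 CPM in WT, 42.7, 35.7 and 6.91 CPM in DH-LMP2A, and 15.8, 25.2 and 3.64 CPM in kFRA. The kFRA libraries spread over 6.93-fold, and replicate 2 was the highest. Its sum of macrophage markers without Ly6c2 was also the highest of kFRA, at 4765 CPM. Replicates 1 and 3 had similar sums of 2875 and 2932 CPM, but Il1b at 15.8 and 3.64 CPM. With Ly6c2 included, replicate 3 had the highest sum (6958 CPM against 6926 CPM in replicate 2). The part of macrophages in the level of Il1b was not tested. Il1b fell by 3.09 on the log2 scale against WT (adjusted p = 0.0282 by edgeR, SE 0.8), a call that ended without kFRA replicate 1 (adjusted p = 0.0937), kFRA replicate 3 (adjusted p = 0.0675) or WT replicate 2 (adjusted p = 0.0948). Against DH-LMP2A the value was −0.93 (adjusted p = 0.49 by edgeR, SE 0.754). Il1b overlaps an exon of Il1bos on the opposite strand, so its count is uncertain where strand was not used.

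**Figure D3:**
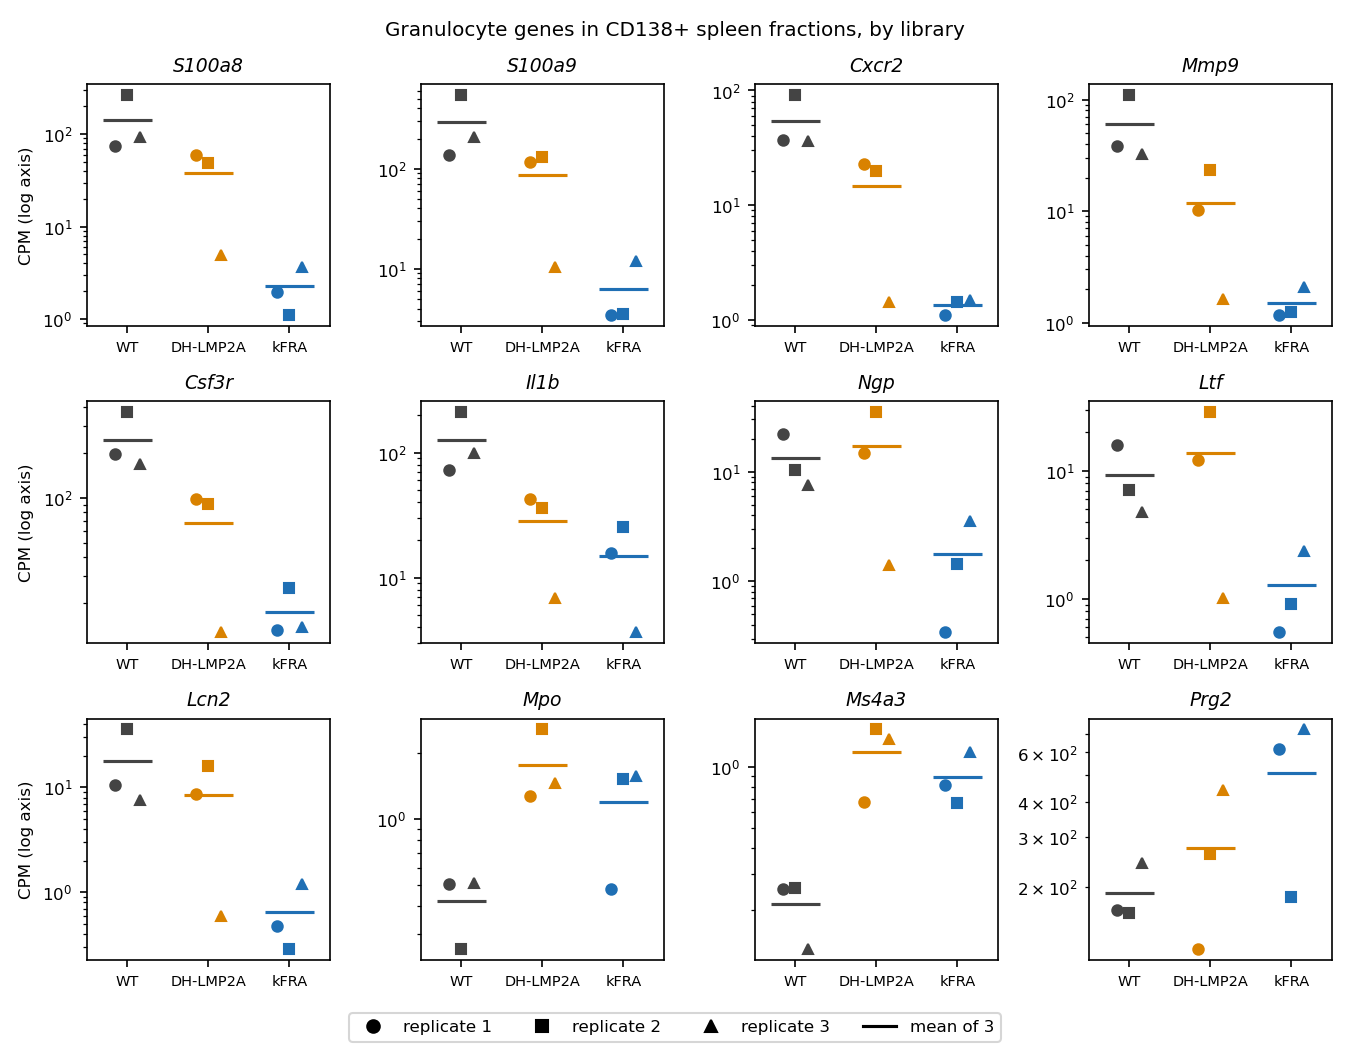
Level in CPM (log axes, which differ between panels) of 12 members in the 9 libraries; points are libraries, shaped by replicate, and lines are means of 3. S100a8, S100a9, Cxcr2, Mmp9, Csf3r and Lcn2 have their highest mean in WT and are low in kFRA and in DH-LMP2A replicate 3. Ngp and Ltf reach their highest level in DH-LMP2A replicate 2. Mpo, Ms4a3 and Prg2 are lowest in WT or in 1 DH-LMP2A library.

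Of the 7 surface receptors of neutrophils, 6 were lower in kFRA than in WT without overlap, and 5 of them passed. Cd177 and Itgb2l were about level in WT and DH-LMP2A (log2 fold changes −0.09 and −0.02), and Ly6g did not follow the others. Csf3r, the receptor of the growth factor G-CSF, was the most abundant of them, at 195, 369 and 167 CPM in WT, 98.7, 91.1 and 12.7 CPM in DH-LMP2A, and 13.2, 25.2 and 13.7 CPM in kFRA. Its log2 fold change in kFRA against WT was −3.81 (adjusted p = 0.0067 by edgeR, SE 0.705). Cxcr2, the chemokine receptor that brings neutrophils out of the bone marrow, was at 36.9, 90.4 and 36.4 CPM in WT, 22.6, 19.9 and 1.42 CPM in DH-LMP2A, and 1.09, 1.43 and 1.5 CPM in kFRA. The fall in kFRA against WT was 40.2-fold, −5.33 on the log2 scale (adjusted p = 0.00481 by edgeR, SE 0.918). Stretches of its transcript, up to 211 bases, also occur in 94 other genes, so its level is uncertain. DH-LMP2A replicate 3 lay inside the kFRA range for Cxcr2, and just below it for Csf3r. Trem1 and Trem3, activating receptors of myeloid cells encoded 0.9 kb apart on chromosome 17, fell by 4.81 (adjusted p = 0.00831 by edgeR, SE 0.935) and by 3.50 (adjusted p = 0.0108 by edgeR, SE 0.716) on the log2 scale in kFRA against WT. Cd177, a surface glycoprotein of neutrophils, was at 2.84, 4.95 and 2.42 CPM in WT, 2.37, 6.4 and 0.824 CPM in DH-LMP2A, and 0.137, 0.285 and 0.314 CPM in kFRA. It was lower in kFRA than in both other genotypes, with log2 fold changes of −3.74 against WT (adjusted p = 0.0119 by edgeR, SE 0.783) and −3.64 against DH-LMP2A (adjusted p = 0.0296 by edgeR, SE 0.781). Without kFRA replicate 1 the adjusted p of Cd177 against WT was 0.0535. Cd177 shares stretches of at least 75 bases with the genes BC049730 and Gm4763, so some of its reads are uncertain. Itgb2l, a beta integrin of neutrophils, had 20, 7 and 10 counts in WT and 0, 2 and 2 counts in kFRA, and its log2 fold change of −3.02 did not pass (adjusted p = 0.0933 by edgeR, SE 1.13).

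Ly6g, the surface antigen by which mouse neutrophils are commonly sorted, did not follow the other receptors. It was at 0.304, 1.73 and 1.15 CPM in WT, 2.92, 2.88 and 1.74 CPM in DH-LMP2A, and 1.91, 1.38 and 2.76 CPM in kFRA. WT was thus not the highest group, and its replicate 1 was the lowest of the 9 libraries. The log2 fold change was 0.92 in kFRA against WT (adjusted p = 0.246 by edgeR, SE 0.536) and 1.24 in DH-LMP2A against WT (adjusted p = 0.168 by edgeR, SE 0.527). Over the 9 libraries, log2 CPM of Ly6g had a Pearson correlation of −0.153 with that of S100a9. With plasma cell markers it was 0.785 for Mzb1, 0.777 for Xbp1, 0.673 for Sdc1, 0.639 for Jchain and 0.418 for Prdm1. These are descriptions over 9 libraries of 3 genotypes that share their scaling.

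Most secondary and tertiary granule genes followed S100a9, and some did not. In kFRA against WT all 10 were lower without overlap, and 6 passed. Mmp9, the gelatinase of the tertiary granules, was at 38.7, 109 and 32.7 CPM in WT, 10.1, 23.4 and 1.65 CPM in DH-LMP2A, and 1.16, 1.24 and 2.07 CPM in kFRA. Its fall in kFRA against WT was 40.4-fold, −5.34 on the log2 scale (adjusted p = 0.00511 by edgeR, SE 0.929). Hp, haptoglobin, which binds free haemoglobin, was at 18.5, 69.3 and 23.1 CPM in WT and 0.752, 0.428 and 2.26 CPM in kFRA, a log2 fold change of −5.04 (adjusted p = 0.0101 by edgeR, SE 1.02). Hp and S100a9 varied together over the 9 libraries (Pearson correlation of log2 CPM 0.996). Lcn2, lipocalin 2, which binds bacterial siderophores, was at 10.5, 35.7 and 7.64 CPM in WT, 8.67, 15.9 and 0.595 CPM in DH-LMP2A, and 0.479, 0.285 and 1.19 CPM in kFRA. Lcn2 fell by 4.81 on the log2 scale against WT (adjusted p = 0.0203 by edgeR, SE 1.15), and the call ended without kFRA replicate 1 (adjusted p = 0.0809), kFRA replicate 3 (adjusted p = 0.0504) or WT replicate 2 (adjusted p = 0.0672). Mmp8, the neutrophil collagenase, was at 6.89, 11.1 and 4.78 CPM in WT, 9.01, 8.68 and 0.641 CPM in DH-LMP2A, and 0.137, 0.0951 and 0.69 CPM in kFRA. It fell by 4.65 against WT (adjusted p = 0.015 by edgeR, SE 1.03) and by 4.33 against DH-LMP2A on the log2 scale (adjusted p = 0.0435 by edgeR, SE 1.02), the first call ending without kFRA replicate 1 (adjusted p = 0.0644). Olfm4, the glycoprotein olfactomedin 4, had 48 counts in the WT libraries together and 1 in the kFRA libraries. The ratio of these counts, set against the libraries' scaled totals, was 45-fold with an exact 95% interval of 7.7 to 1813, for counting error only. Its edgeR adjusted p was 0.0353, and the call ended without any 1 of the 3 kFRA libraries or without WT replicate 2 (adjusted p between 0.0625 and 0.117). Pglyrp1, a peptidoglycan-binding protein, had a smaller difference, with 10.2, 17.7 and 11.3 CPM in WT, 4.44, 5.94 and 4.26 CPM in DH-LMP2A, and 4.92, 1.86 and 4.33 CPM in kFRA. Its log2 fold change was −1.83 in kFRA against WT (adjusted p = 0.00942 by edgeR, SE 0.365) and −1.42 in DH-LMP2A against WT (adjusted p = 0.0297 by edgeR, SE 0.354), and DH-LMP2A replicate 3 did not stand apart. Part of its transcript, up to 105 bases, also occurs in 122 other genes, so its level is uncertain.

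Ngp, Ltf, Camp and Chil3 were the secondary granule genes that did not pass in any of the 3 comparisons. Ngp, the neutrophilic granule protein, Ltf, lactoferrin, and Camp, the cathelicidin, lie near each other on chromosome 9, with 1.17 Mb between Camp and Ltf (Camp at chr9:109847379-109849617, Ngp at chr9:110419747-110423012 and Ltf at chr9:111019271-111042767). Ngp was at 22.3, 10.4 and 7.52 CPM in WT, 14.9, 34.7 and 1.42 CPM in DH-LMP2A, and 0.342, 1.43 and 3.58 CPM in kFRA. The highest library was DH-LMP2A replicate 2 and, within WT, replicate 1 rather than replicate 2. Ltf was also highest there, with 15.8, 7.09 and 4.78 CPM in WT, 12.1, 28.4 and 1.01 CPM in DH-LMP2A, and 0.547, 0.904 and 2.38 CPM in kFRA. Camp was at 6.18, 2.65 and 2.36 CPM in WT, 4.15, 9.51 and 0.595 CPM in DH-LMP2A, and 0.0684, 0.666 and 1.57 CPM in kFRA. Chil3, a chitinase-like secreted protein, was at 6.18, 3.16 and 2.29 CPM in WT, 4.23, 11.5 and 0.503 CPM in DH-LMP2A, and 0.342, 0.0951 and 0.815 CPM in kFRA. All 4 thus peaked in DH-LMP2A replicate 2, and all kFRA libraries lay below all WT libraries. Their log2 fold changes in kFRA against WT were −2.90 for Ngp, −2.85 for Ltf, −2.27 for Camp and −3.26 for Chil3 (SE 0.997 to 1.07, edgeR adjusted p = 0.0829, 0.084, 0.139 and 0.064). Under 3 alternatives Ngp, Ltf and Chil3 did pass there: without the filter (adjusted p = 0.0395, 0.0416 and 0.0285), with the 6 libraries alone (adjusted p = 0.0352, 0.0239 and 0.0195) and by DESeq2 (adjusted p = 0.0489, 0.0425 and 0.00398). The values for DH-LMP2A against WT were 0.34, 0.58, 0.34 and 0.47 in the same order, and all 4 turned negative without DH-LMP2A replicate 2 (Ngp −0.69, Ltf −0.47, Camp −0.63 and Chil3 −0.69). Chil3 shares 126 bases with Chil4 and Gm6522, so a part of its reads is uncertain.

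The ratio of these granule genes to S100a9 was therefore not the same in all libraries. Per 100 counts of S100a9, Ngp had 16.4, 1.93 and 3.6 counts in WT, 12.8, 26.5 and 13.5 in DH-LMP2A, and 10, 40.5 and 30 in kFRA. The exact 95% intervals were 1.67 to 2.21 in WT replicate 2 and 25.6 to 62.7 in kFRA replicate 2, so the difference between those libraries is beyond counting error. WT replicates 2 and 3 were below every other library on this ratio, and WT replicate 1 was not. Ltf behaved alike, with 11.6, 1.32 and 2.29 counts per 100 of S100a9 in WT, 10.4, 21.7 and 9.61 in DH-LMP2A, and 16, 25.7 and 20 in kFRA. S100a8, by contrast, kept between 31 and 58 counts per 100 of S100a9 in all 9 libraries, over a span of S100a9 from 50 to 10542 counts. Cxcr2 lay between 12.6 and 40.5 counts per 100 of S100a9. In kFRA replicates 1 and 2, Csf3r (386 and 716) and Il1b (462 and 716) were far above their ratio elsewhere, which was 68.7 to 144 for Csf3r and 27.3 to 65.9 for Il1b. kFRA replicate 3 was within that range for both, with 115 and 30.5 counts. Csf3r holds stretches found in 55 other genes, the longest of 1518 bases. As given above, macrophage markers were high relative to the neutrophil members in kFRA, and their part in these ratios was not tested.

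**Figure D4:**
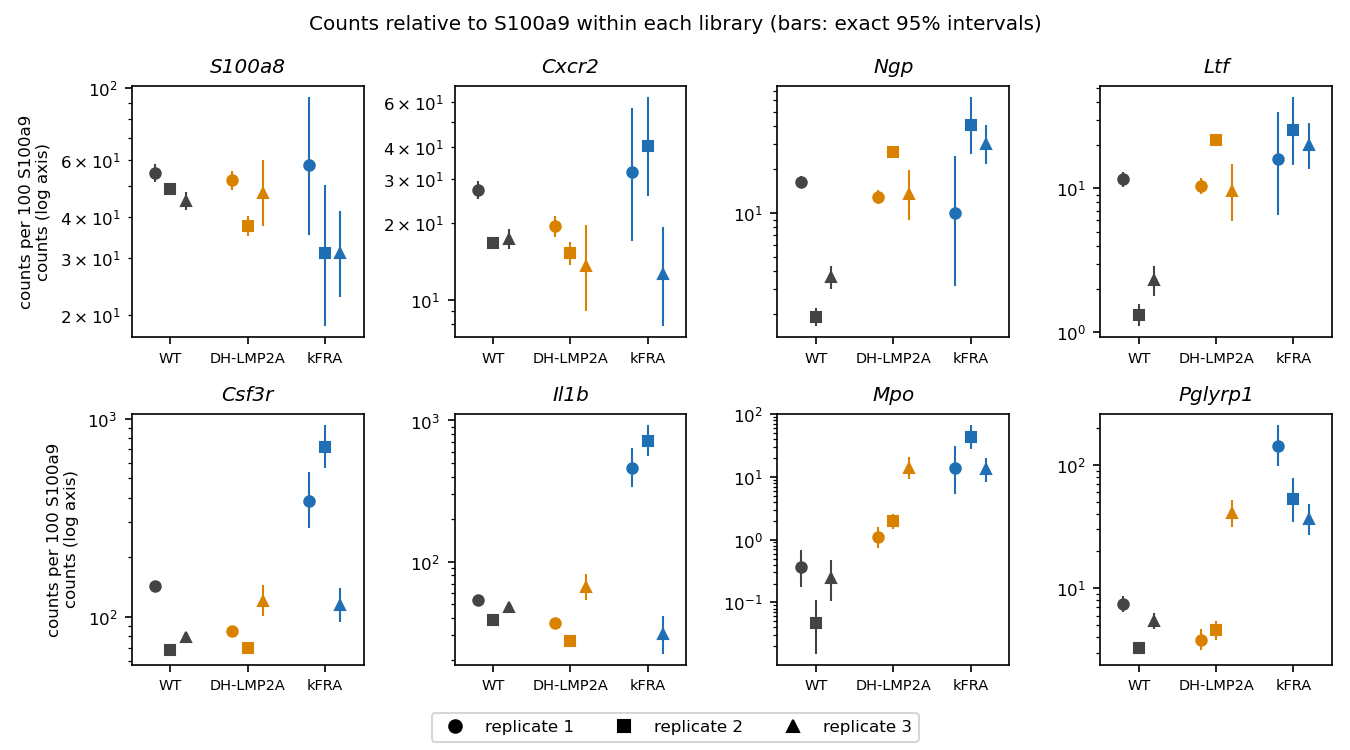
Counts of 8 members per 100 counts of S100a9 in each library (log axes, which differ between panels), with exact 95% intervals as bars, for counting error only. S100a8 stays between 31 and 58 in every library, Ngp and Ltf are lowest in WT replicates 2 and 3, Csf3r and Il1b are highest in kFRA replicates 1 and 2, and Mpo and Pglyrp1 are highest in kFRA and DH-LMP2A replicate 3.

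The early neutrophil genes were near the floor, and the 2 that could be tested went the other way. Mpo (chr11:87793581-87804413), myeloperoxidase, had 10, 5 and 8 counts in WT, 30, 55 and 32 in DH-LMP2A, and 7, 32 and 25 in kFRA. All DH-LMP2A libraries were above all WT libraries, while kFRA replicate 1 lay among the WT libraries. Mpo rose by 2.05 on the log2 scale in DH-LMP2A against WT, from 0.424 ± 0.146 to 1.76 ± 0.691 CPM (SD, n = 3 each; adjusted p = 0.0311 by edgeR, SE 0.517). Without DH-LMP2A replicate 1 or 2 or any 1 of the WT libraries the adjusted p was 0.0541 to 0.121, so the call rests on nearly all of the libraries. In kFRA against WT its value was 1.5 (adjusted p = 0.0788 by edgeR, SE 0.53). Mpo overlaps exons of Gm11505 on the opposite strand, so its count is uncertain where strand was not used. Ms4a3, a membrane protein that marks granulocyte and monocyte progenitors, had 5, 5 and 2 counts in WT, 16, 33 and 30 in DH-LMP2A, and 12, 14 and 19 in kFRA. It was the 1 member higher in kFRA than in WT by the test, with a log2 fold change of 2.01 (adjusted p = 0.0219 by edgeR, SE 0.487). The call ended without kFRA replicate 1 or 3 or any 1 of the WT libraries (adjusted p between 0.0556 and 0.0737). In DH-LMP2A against WT, Ms4a3 rose by 2.43 (adjusted p = 0.00989 by edgeR, SE 0.471), and passed in all 6 fits that left out 1 library of these groups. Between kFRA and DH-LMP2A neither gene passed, with −0.54 for Mpo (adjusted p = 0.512 by edgeR, SE 0.467) and −0.42 for Ms4a3 (adjusted p = 0.559 by edgeR, SE 0.402).

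The remaining 5 early genes had too few counts for a test. Elane, neutrophil elastase, had 1, 0 and 0 counts in WT, 2, 18 and 1 in DH-LMP2A, and 0, 0 and 4 in kFRA. Its neighbour Prtn3, proteinase 3, which lies 3.1 kb away on chromosome 10, had 2, 1 and 1 counts in WT, 2, 11 and 2 in DH-LMP2A, and 0, 2 and 7 in kFRA. DH-LMP2A replicate 2 and kFRA replicate 3 thus held most of the reads of both genes. Prtn3 overlaps exons of Lppr3 on the opposite strand, so its count is uncertain where strand was not used. Ctsg, cathepsin G, had 0 to 3 counts in each library. Fcnb, ficolin B, had 0 to 7 counts, and Cebpe, the C/EBP factor needed for secondary granules, had 2 to 10. Summed over the group, Elane had 21 counts in DH-LMP2A and 1 in WT, a ratio of 17.2 with an exact 95% interval of 2.77 to 713 for counting error only. Since 18 of the 21 were in replicate 2, that ratio describes 1 library. In a fit without the filter, all 5 genes missed the threshold in each comparison (adjusted p of at least 0.185 by edgeR). Per 100 counts of S100a9, Mpo had 0.372, 0.0474 and 0.244 counts in WT, 1.09, 1.95 and 14 in DH-LMP2A, and 14, 43.2 and 13.2 in kFRA. DH-LMP2A replicate 3 was on this ratio beside the kFRA libraries, since its S100a9 was low and its Mpo was not.

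The 4 genes of basophils and eosinophils did not move together. Prg2 (chr2:84980461-84983632), the eosinophil granule major basic protein, was among the highest members in each genotype and ran against the neutrophil genes. It was at 166, 161 and 242 CPM in WT, 120, 261 and 441 CPM in DH-LMP2A, and 615, 185 and 724 CPM in kFRA. kFRA replicates 1 and 3 were the highest libraries and kFRA replicate 2 lay within the WT range. Its log2 fold change was 1.42 in kFRA against WT (adjusted p = 0.0986 by edgeR, SE 0.545), 0.89 in kFRA against DH-LMP2A (adjusted p = 0.35 by edgeR, SE 0.539) and 0.53 in DH-LMP2A against WT (adjusted p = 0.603 by edgeR, SE 0.536). Without kFRA replicate 2 the first value was 1.88 and passed (adjusted p = 0.0139 by edgeR). That library was the 1 of kFRA with high Xist (734 CPM), so this fit kept only kFRA libraries with Ddx3y. Of the WT libraries, only replicate 2 had Ddx3y. The highest Prg2 libraries, kFRA replicates 3 and 1 and DH-LMP2A replicate 3, all had Ddx3y. WT replicate 2 had it too, with the lowest Prg2 of WT. The part of sex in the level of Prg2 was not tested. Epx, eosinophil peroxidase, the other eosinophil granule gene of the list, had 0, 1 and 0 counts in WT, 34, 22 and 2 in DH-LMP2A, and 2, 0 and 0 in kFRA. Per 100 counts of Prg2, Epx had 1.2 and 0.39 counts in DH-LMP2A replicates 1 and 2 and at most 0.0317 in the 7 other libraries. Prg2 was thus high also in libraries where Epx was at or under the floor. The summed Epx counts of DH-LMP2A were 47.6-fold above those of WT (exact 95% interval 8.22 to 1913) and 22.3-fold above those of kFRA (5.91 to 189), for counting error only. The basophil proteases Mcpt8 (0 to 4 counts) and Prss34 (0 to 4 counts) were at or near the floor in each library. The correlation of log2 CPM of Prg2 over the 9 libraries was −0.626 with S100a9 and 0.574 with Ly6c2, as a description. With plasma cell markers it was 0.644 for Sdc1, 0.435 for Jchain, 0.388 for Mzb1, 0.17 for Prdm1 and 0.119 for Xbp1.

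Levels per gene length put the members in another order than CPM. In CPM per kilobase of exon, S100a9 was highest in WT with a mean of 564, before Prg2 with 226, S100a8 with 207, Csf3r with 67.6 and Il1b with 66.6. In DH-LMP2A the order began with Prg2 at 327, S100a9 at 164 and S100a8 at 55. In kFRA Prg2 was at 606 and S100a9 at 12, followed by Il1b at 7.8, Csf3r at 4.81 and S100a8 at 3.26. In kFRA the SD of Il1b and that of S100a9 in CPM were nearly as large as their means (14.9 ± 10.8 and 6.29 ± 4.88, SD, n = 3 each), so these neighbours in that last order do not differ beyond their spread.

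The calls between kFRA and DH-LMP2A depended on single libraries. The 4 members that fell were Mmp8, S100a8, Retnlg and Cd177, and 25 of the 26 tested members had a negative value. Without DH-LMP2A replicate 3, 19 members passed, all lower in kFRA, and 521 genes passed in all. That library was the 1 of its group with Ddx3y, so this fit kept only DH-LMP2A libraries with high Xist. Of the kFRA libraries, only replicate 2 had high Xist. The part of sex in these calls was not tested. Without DH-LMP2A replicate 1, DH-LMP2A replicate 2, kFRA replicate 1 or kFRA replicate 3, 0 members passed by edgeR's test. In these fits 352 to 411 genes passed in all, and 16 to 19 members had an unadjusted p under 0.05. With all libraries, 19 members had such an unadjusted p. Without kFRA replicate 2, 3 members passed, where 3299 genes passed in all, against 713 with all libraries. In that fit the members thus did not pass more often than all genes. S100a9 had a log2 fold change of −3.78 with all libraries (adjusted p = 0.0564 by edgeR, SE 0.956) and −4.25 without DH-LMP2A replicate 3 (adjusted p = 0.00886). Cxcr2 had −3.44 (adjusted p = 0.058 by edgeR, SE 0.877) and −3.94 without that library (adjusted p = 0.000738). The 4 calls also depended on the test: the Wald test of DESeq2 called 17 members, and the fit to the 6 libraries alone called 1.

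In DH-LMP2A against WT, the classes differed in sign. The values of the 6 mature neutrophil proteins lay between −2.16 for Il1b and −1.04 for Anxa1, and those of the 10 later granule genes between −2.36 for Mmp9 and 0.58 for Ltf. Padi4 and Pglyrp1 fell, and Mpo and Ms4a3 rose, a share of the members near that of all genes that passed. When libraries were scaled by their size alone, the median of all genes moved by 0.342 on the log2 scale and neither Padi4 (−1.59, adjusted p = 0.075) nor Pglyrp1 (−1.08, adjusted p = 0.0528) passed. Padi4 passed in 2 and Pglyrp1 in 1 of the 6 fits that left out 1 library of these groups. With all libraries 4 members passed, but 1 passed without DH-LMP2A replicate 1, 1 without WT replicate 2, 1 without WT replicate 3 and 2 without WT replicate 1. In these fits 932 to 1408 genes passed in all, against 1756 with all libraries. S100a8 (−1.91, adjusted p = 0.162 by edgeR, SE 0.798) and Cxcr2 (−1.89, adjusted p = 0.138 by edgeR, SE 0.744) were lower in all 3 DH-LMP2A libraries than in any WT library, but did not pass.

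A wider list of 88 genes of granulocytes and their precursors, none of them a member, was measured beside the members. Of these, 64 were tested. In kFRA against WT, 36 were lower and 2 higher (Kit and Ms4a2) by the test. In kFRA against DH-LMP2A 4 passed, all lower, and in DH-LMP2A against WT 16 were lower and 3 higher (Kit, Ms4a2 and Gfi1). These are 59.4%, 6.25% and 29.7% of the 64, where 17.8%, 5.02% and 12.4% of all genes passed, so that the count for kFRA against DH-LMP2A is near the background. Without WT replicate 2 the count for kFRA against WT was 22, and without kFRA replicate 1 it was 23. In these fits 1271 and 1289 genes passed in all. For kFRA against DH-LMP2A the count was 13 without DH-LMP2A replicate 3, where 521 genes passed in all. It was 8 without kFRA replicate 2, where 3299 genes passed in all, so that the list did not pass more often than all genes. It was 0 by edgeR without kFRA replicate 1 (22 at an unadjusted p under 0.05), and 1 each without DH-LMP2A replicate 1 or 2. There 352 to 379 genes passed in all. For DH-LMP2A against WT the count was 7 without DH-LMP2A replicate 1 and 7 without WT replicate 2, and 12 without WT replicate 3. There 932, 1027 and 1408 genes passed in all. Of the list's 35 tested genes of mature neutrophils, 25 fell in kFRA against WT, and the median log2 fold change of all 35 was −2.84.

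Itgam, the integrin chain CD11b of myeloid cells, was at 32.2, 65.4 and 35.2 CPM in WT, 16.6, 21.6 and 5.35 CPM in DH-LMP2A, and 1.44, 3.95 and 2.88 CPM in kFRA. All kFRA libraries were below all others, with log2 fold changes of −3.98 against WT (adjusted p = 0.00179 by edgeR, SE 0.569) and −2.37 against DH-LMP2A (adjusted p = 0.0401 by edgeR, SE 0.546). Mmp25 (−2.74, adjusted p = 0.0417 by edgeR, SE 0.638) and Alox5, the 5-lipoxygenase of leukotriene synthesis (−2.80, adjusted p = 0.0464 by edgeR, SE 0.673), were also lower in kFRA than in DH-LMP2A. Ncf1, a subunit of the phagocyte NADPH oxidase, fell by 2.18 in kFRA against WT (adjusted p = 0.00243 by edgeR, SE 0.328). Serpinb1a, an inhibitor of neutrophil serine proteases, was at 17.8, 23.5 and 7.07 CPM in WT and between 1.32 and 3.02 CPM in the 6 other libraries. It was lower than in WT in kFRA (−3.37, adjusted p = 0.00122 by edgeR, SE 0.453) and in DH-LMP2A (−2.84, adjusted p = 0.00307 by edgeR, SE 0.432), 2 comparisons that share the WT libraries. Slpi, a secreted inhibitor of neutrophil elastase, was at 1060, 1416 and 1443 CPM in WT, 194, 219 and 157 CPM in DH-LMP2A, and 871, 706 and 231 CPM in kFRA. It fell in DH-LMP2A against WT by 2.78 (adjusted p = 0.00331 by edgeR, SE 0.43) and did not pass in kFRA against DH-LMP2A (1.67, adjusted p = 0.0519 by edgeR, SE 0.413).

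Kit, the receptor of stem cell factor on progenitors and mast cells, ran like Ms4a3. It was at 4.86, 3.52 and 3.95 CPM in WT, 30.5, 30.8 and 43.3 CPM in DH-LMP2A, and 22, 25.5 and 15 CPM in kFRA. No library of either genotype came near WT, and Kit rose by 3.08 in DH-LMP2A (adjusted p = 6.08e-05 by edgeR, SE 0.248) and by 2.34 in kFRA (adjusted p = 0.000236 by edgeR, SE 0.244), both on the log2 scale against the same WT libraries. Of the 15 mast cell and basophil genes on the wider list, 4 were tested. Ms4a2, the beta chain of the IgE receptor, had 6, 5 and 2 counts in WT, 28, 26 and 16 in DH-LMP2A, and 15, 17 and 10 in kFRA. It rose by 2.13 in DH-LMP2A (adjusted p = 0.0103 by edgeR, SE 0.417) and by 1.78 in kFRA (adjusted p = 0.0216 by edgeR, SE 0.431) against WT. Fcer1g and Ifitm1, which other cells also express, were lower than in WT in both. Fcer1a, the alpha chain of the same receptor, and the mast cell proteases Cpa3, Mcpt1, Mcpt4, Tpsb2 and Cma1 had 0 to 3 counts in each library. Spi1, which encodes PU.1, was at 76.6, 88.2 and 62.3 CPM in WT and between 32.4 and 42.6 CPM in the 6 other libraries, with log2 fold changes of −0.97 in DH-LMP2A (adjusted p = 0.0044 by edgeR, SE 0.159) and −0.95 in kFRA (adjusted p = 0.00422 by edgeR, SE 0.159). Fcer1g, an adaptor of Fc receptors on many myeloid cells, fell by 1.48 in DH-LMP2A against WT (adjusted p = 0.00866 by edgeR, SE 0.279). Of the eosinophil genes, Siglecf had 1.06, 3.42 and 0.701 CPM in WT and at most 0.719 CPM elsewhere. Prg3, a homologue of Prg2, was at 1.65 to 8.91 CPM. Ms4a2, Gfi1, Ifitm1, Fcer1a, the mast cell proteases, Siglecf and Prg3 were chosen after their values were seen.

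Over the 9 libraries, the members whose log2 CPM was most like that of S100a9 were Hp (Pearson correlation 0.996), S100a8 (0.994), Retnlg (0.982), Cxcr2 (0.979) and Anxa1 (0.975). The correlation was 0.848 for Ngp and 0.825 for Ltf. The least alike among the tested members were Prg2 (−0.626), Ms4a3 (−0.535), Mpo (−0.334) and Ly6g (−0.153). With Csf1r and C1qa, which mark macrophages, S100a9 had correlations of 0.53 and 0.57, and with Ly6c2 of −0.772. These values describe 9 libraries of 3 genotypes that share their scaling, and most of the span comes from the differences between the groups and from DH-LMP2A replicate 3.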

How the data were processed

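The authors deposited raw read counts per gene, without normalization, per the file headers, in the layout of featureCounts. The submitters' processing notes name STAR 2.4.0a, Subread 1.5.0-p3, featureCounts and DESeq2 and the builds mm10 and GRCm38. Per the labels, polyadenylated RNA (500 ng of total RNA) was sequenced with a stranded kit as paired reads of 75 bases. The strand setting of the counting is not given in the sources used here.

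Counts were tested with edgeR 4.0.16 in R 4.3.3: filterByExpr by group (minimum count 10), which left 14199 genes, 257 of them immunoglobulin, TMM scaling, 1 coefficient per genotype over all 9 libraries, the 2-sided quasi-likelihood F test and Benjamini-Hochberg adjustment. SE is the log2 fold change divided by the square root of F. Replicates differed by more than counting noise (chi-square per degree of freedom 17.3 to 164). The test was run on simulated data first. Levels per gene length use the table's exon lengths. Transcripts were compared with BLAST 2.17.0 (GENCODE M21, at least 75 bases at 95% identity). The labels name no molecular identifiers, and intervals and floors are for counting error alone. The members and all lists were chosen with earlier results of these data known. All members are named, and of the wider list, per comparison, the 5 genes with the smallest p at a mean of at least 1 CPM, except 1 gene that is not reported here. The alternatives were other scalings, filters, thresholds and libraries, DESeq2 1.42.0, and the replicate number as a block.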

Additional observations from a re-analysis of the deposited data

How the results depend on the processing

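Where 3 counts of calls are given, they are for kFRA against DH-LMP2A, kFRA against WT and DH-LMP2A against WT, in this order. For each change the cause was not tested unless fewer samples or genes show it. With an adjusted p under 0.01, 306, 975 and 765 genes passed in all, 0, 10 and 1 members and 0, 17 and 5 genes of the wider list. In kFRA against DH-LMP2A, where both lists had 0 by edgeR, 19 members and 29 wider genes had an unadjusted p under 0.05, and DESeq2 called 17 and 20 at an adjusted 0.05. With a mean of at least 5 CPM, 1, 11 and 1 members and 2, 20 and 11 wider genes passed, and 1095 genes in all in DH-LMP2A against WT. Without a filter, 14 members and 14 wider genes passed in kFRA against DH-LMP2A, and 9 members in DH-LMP2A against WT. The DESeq2 Wald test gave 1405 genes, 17 members and 20 wider genes in kFRA against DH-LMP2A. With only the 6 libraries compared, 1 member and 1 wider gene passed there. A fold change of at least 2 left 1588 genes in kFRA against WT. Library size alone gave 2 members and 1 wider gene in kFRA against DH-LMP2A, and 2 and 7 in DH-LMP2A against WT. It moved the median log2 fold change of all genes by −0.131, 0.212 and 0.342, and the share of calls that were higher from 37.6% to 72% (kFRA against WT) and from 41% to 79.9% (DH-LMP2A against WT).

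Without 1 library at a time, there were 352 to 3299, 1271 to 5632 and 932 to 1408 genes, 0 to 19, 13 to 18 and 1 to 4 members, and 0 to 13, 22 to 46 and 7 to 16 wider genes. The 3299 and 5632 genes passed without kFRA replicate 2, among them 3 and 18 members and 8 and 46 wider genes. Member values kept their sign in both kFRA comparisons under all settings. In DH-LMP2A against WT, 19 values turned, none of them past the threshold. Leaving out 1 library at a time gave ranges of −0.69 to 0.92 for Ngp, −0.63 to 0.92 for Camp, −0.47 to 1.22 for Ltf and −0.69 to 1.02 for Chil3, each lowest without DH-LMP2A replicate 2. The range was −0.83 to 0.91 for Olfm4, negative also without WT replicate 1 (−0.26) or 3 (−0.12). It was −0.71 to 0.23 for Mmp8, positive without DH-LMP2A replicate 3 or WT replicate 2 (0.06). For Cd177 it was −1.07 to 0.37, positive without DH-LMP2A replicate 1 (0.08) or 3 and without WT replicate 2 (0.28). For Itgb2l it was −1.02 to 0.53, positive without DH-LMP2A replicate 1 (0.05) or 3 and without WT replicate 1 (0.42). With library size alone, Mmp8 (0.0408), Cd177 (0.27) and Itgb2l (0.33) were positive.

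The replicate numbers of the titles name different mice. Same-numbered libraries had correlations of −0.211 to 0.196, of deviations from the genotype mean. Of 9 libraries, 2 correlated best with their own number. With 3 libraries per genotype, these values cannot tell whether libraries of 1 number shared a step of processing. With the replicate block, 3, 18 and 8 members passed, against 4, 18 and 4 without it. Olfm4 in DH-LMP2A against WT was −0.00843 with the block. Depth limits the 8 members below the filter. In the fit without a filter, Epx passed in DH-LMP2A against WT (adjusted p = 0.0167 by edgeR), and the 7 others passed in no comparison.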
